A study of Mus musculus with 5 samples.

Results

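Cardiac muscle genes were followed in RNA sequencing of whole mouse lung, a tissue whose pulmonary veins are sheathed in heart-type muscle in this species. The set held 38 listed genes of the sarcomere, of calcium handling, of potassium channels, of natriuretic peptides and of muscle energy supply. A gene was kept where its mean log2 CPM (counts scaled to library size, averaged over both groups of a comparison and put on a log2 scale) was at least 0 in all 4 of the authors' deposited comparison tables. This kept 36 of the 38 genes, of 21590 genes in the tables. The genes were chosen by their deposited fold changes in these same comparisons and by what they do, so their values describe the lungs and do not test the set.

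The lungs came from mice of a mixed 129S6, C57BL/6 and BALB/c background. KO_VILIhigh were Cldn4 knockout mice ventilated for 2 h at 40 cmH2O whose injury was higher than in wild type. KO_VILIlow were Cldn4 knockout mice given the same ventilation whose injury was similar to wild type. WT_VILI were wild type mice given that ventilation, KO_noVILI were Cldn4 knockout mice without it, and WT_noVILI were wild type mice without it. VILI is ventilator-induced lung injury, the damage done to the lung by overstretching it. Claudin-4, the product of Cldn4, is part of the tight junctions that seal epithelial cells to each other. The study sorted the ventilated knockout mice by the injury they had, and the labels used here give neither age nor sex. Each group has 1 record in the labels, while the design text speaks of duplicates, that is 2 libraries per group.

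In the mouse, cardiomyocytes extend from the left atrium along the pulmonary veins and deep into the lung, where they contract in step with the atrium. Like atrial muscle, this sleeve expresses the atrial myosin light chains, the calcium pump inhibitor sarcolipin and atrial natriuretic peptide, a hormone released on stretch. The contractile unit of such cells is the sarcomere, in which myosin thick filaments pull on actin thin filaments when calcium leaves the sarcoplasmic reticulum and binds troponin.

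Promoter sequences are shown for 4 of the genes whose levels carry the results below: Myl7, the atrial regulatory myosin light chain, Actc1, cardiac actin, Mybpc3, which binds thick filaments, and Nppa, which encodes atrial natriuretic peptide. Each is the 150 bases before the annotated start, 5′ to 3′ on the gene's strand, taken from RefSeq on GRCm38.p6, which is not the authors' build.
Myl7, chr11:5898783-5898932, minus strand: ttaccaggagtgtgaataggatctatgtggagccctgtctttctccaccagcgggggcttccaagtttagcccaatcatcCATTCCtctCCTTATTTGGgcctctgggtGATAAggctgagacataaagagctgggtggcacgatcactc
Actc1, chr2:114052876-114053025, minus strand: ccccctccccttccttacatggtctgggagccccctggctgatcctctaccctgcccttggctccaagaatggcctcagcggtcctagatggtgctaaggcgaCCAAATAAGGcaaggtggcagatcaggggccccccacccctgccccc
Mybpc3, chr2:91117994-91118143, plus strand: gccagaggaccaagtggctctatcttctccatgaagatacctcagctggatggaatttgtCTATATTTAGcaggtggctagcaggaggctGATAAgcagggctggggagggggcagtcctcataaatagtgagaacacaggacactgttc
Nppa, chr4:148000572-148000721, plus strand: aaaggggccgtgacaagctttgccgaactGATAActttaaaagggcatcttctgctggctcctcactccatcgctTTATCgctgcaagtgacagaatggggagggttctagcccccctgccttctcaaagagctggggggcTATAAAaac

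Capitals mark letter matches, and none of the marked matches overlap each other. In Myl7 they are CATTCC, the motif of TEAD factors, at -70 to -65 from the start, a CArG box, the motif of serum response factor, at -61 to -52, and GATAA, a motif of GATA factors, at -41 to -37. Actc1 holds a CArG box at -47 to -38. Mybpc3 holds a MEF2 site at -90 to -81 and GATAA at -60 to -56. Nppa holds GATAA at -121 to -117, the same motif on the other strand, printed as TTATC, at -75 to -71, and TATAAA at -9 to -4. Promoters could be matched for 31 of the 36 genes, and both strands of the 250 bases before the start were searched. A CArG box was present in 6 of 31 (19.4%), in Actc1, Ldb3, Myl3, Myl7, Myom1 and Nebl, against 1.62% of the same stretches of 27025 genes. A MEF2 site was present in 4 (12.9%), in Casq2, Mybpc3, Myoz2 and Ttn, against 3.42% of all genes. As a ratio of shares, the other motifs differed less. GATAA was found in 35.5% of the cardiac muscle promoters and 25.5% of all, CATTCC in 22.6% and 14.4%, and TATAAA in 6.45% and 14.3%. A match of letters is not a binding site, and these shares were not tested. The genes lie on 16 chromosomes, and among kept genes Myh6 and Myh7 are neighbours, on chromosome 14.

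Only the authors' 4 comparison tables were used, with 0 columns of values per library, so the depth, the level in each lung and the spread between replicates are unknown. Group levels in CPM were rebuilt here from each gene's fold change and mean level as given in the authors' deposited tables, 1 level per group, and levels set across groups come from tables that were normalized separately. By this reckoning Cldn4 stood at 0.122 CPM in KO_VILIhigh, 0.0212 CPM in KO_VILIlow, 140 CPM in WT_VILI, 0.140 CPM in KO_noVILI and 9.38 CPM in WT_noVILI, so the levels follow the genotype labels. The lowest mean levels that the authors' deposited tables list, each shared by at least 3870 genes, were 0.387, 0.338, 0.313 and 0.238 CPM in the tables of KO_VILIhigh, KO_VILIlow, WT_VILI and KO_noVILI, and a level under these is a fitted value near the floor. Rebuilt from the authors' deposited tables, Xist, expressed in females, was at 2.56 to 6.13 CPM in the ventilated groups and 505 and 891 CPM in the unventilated ones. The Y-linked gene Ddx3y was at 90.7 to 115 CPM in the ventilated groups and 0.421 and 0.234 CPM in the unventilated ones by the same rebuilding. Ventilated and unventilated lungs therefore differed in sex-linked transcripts too, and ventilation and sex cannot be told apart where those groups are compared.

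The atrial genes Myl7, Myl4 and Mybphl were expressed, and 2 of 6 ventricular markers were near the floor. The skeletal muscle regulators Myod1, Myog and Myf6 were at the floor, while other skeletal muscle markers were expressed. Rebuilt from the authors' deposited tables, the atrial light chains Myl7 and Myl4 lay at 23.2 to 101 CPM and 23.4 to 107 CPM over the 5 groups. Mybphl, an atrial protein related to Mybpc3 and no member of the set, lay between 3.00 and 14.4 CPM in the same tables. Myl2, the ventricular regulatory light chain, lay between 0.0266 and 0.985 CPM, and Irx4, a ventricular transcription factor, between 0.346 and 0.885 CPM, both near the floor of the authors' deposited tables. The skeletal muscle regulators Myod1, Myog and Myf6 and the skeletal calcium buffer Pvalb were at the floor in every group of those tables. So was Bmp10, a growth factor of the heart's chambers and the marker of the atrial list that was not detected. The 6 atrial markers outside the set did not share 1 pattern. Their summed level was 125 CPM in KO_VILIhigh, 143 CPM in KO_VILIlow, 144 CPM in WT_VILI and 340 CPM in each unventilated group. Among them Mybphl was highest in KO_VILIlow, while Gja5 and Nr2f2 were higher in the unventilated groups. Tbx5 lay between 43.4 and 51.5 CPM and Nr2f1 between 5.23 and 6.79 CPM. Of the 20 listed skeletal muscle markers, 9 were at or above the minimum level in the KO_VILIlow table. Among them were Acta1, at 1.90 to 11.0 CPM over the groups, and Atp2a1, at 1.40 to 6.70 CPM. The ventricular list also names Myl3 and Myh7, which are members and were expressed, and Hey2 and Mpped2, at 2.97 CPM or more in each group, which were called in 0 of the authors' deposited tables, with Hey2 at an unadjusted edgeR p under 0.05 in that of KO_VILIhigh. The tables hold no value that places the RNA in the vein wall or in heart muscle taken with the lung, and these cannot be told apart. In bulk lung, fewer muscle cells and less RNA per cell cannot be told apart either.

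**Figure D1:**
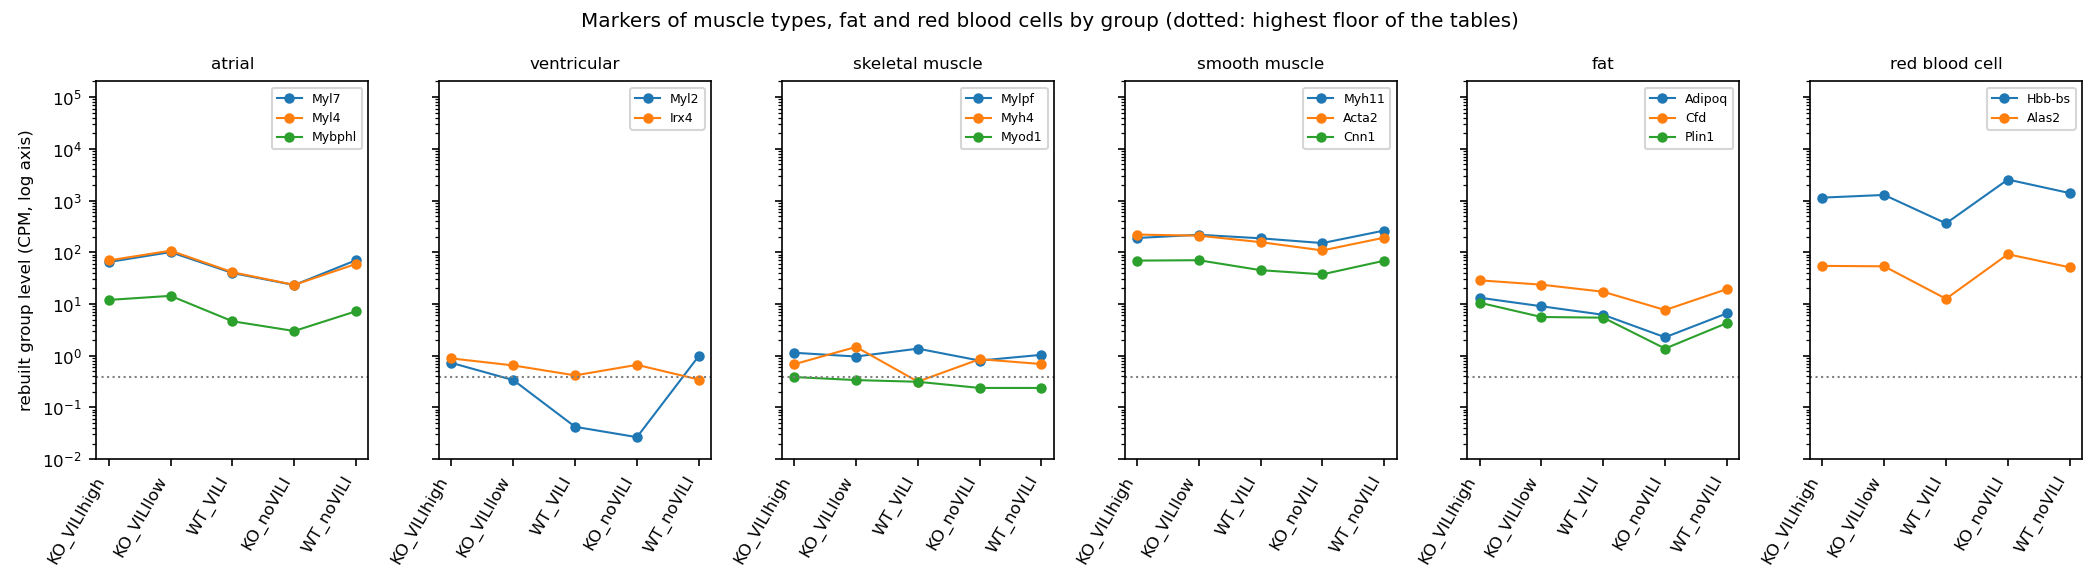
Levels of marker genes in the 5 groups, with each group on the x axis and the rebuilt group level in CPM on a log y axis; each point is 1 rebuilt value per group, without replicates, and the dotted line is the highest of the tables' floors, 0.387 CPM. The atrial genes Myl7, Myl4 and Mybphl lie above the line in every group, and Myod1 lies on or below it. Myl2, at 0.0266 to 0.985 CPM, and Irx4, at 0.346 to 0.885 CPM, lie above it in some groups and below it in others.

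Across the groups the cardiac muscle genes were highest in KO_VILIlow and lowest in KO_noVILI. Rebuilt from the authors' deposited tables, their median level was 19.8 CPM in KO_VILIhigh, 26.3 CPM in KO_VILIlow, 11.0 CPM in WT_VILI, 7.22 CPM in KO_noVILI and 14.4 CPM in WT_noVILI. Their summed level was 1619 CPM in KO_VILIhigh, 2294 CPM in KO_VILIlow, 1100 CPM in WT_VILI, 717 CPM in KO_noVILI and 1473 CPM in WT_noVILI. By these levels 35 of the 36 genes were highest in KO_VILIlow, the exception being Nebl, which was highest in WT_VILI. Of the 36, 32 were lowest in KO_noVILI, while Mybpc3, Sln and Kcnj5 were lowest in WT_VILI and Nebl in KO_VILIhigh. The full order KO_VILIlow, KO_VILIhigh, WT_noVILI, WT_VILI, KO_noVILI, from high to low, held for 22 of the 36. Without values per library, no statement can be made on which neighbours in that order differ beyond their spread.

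**Figure D2:**
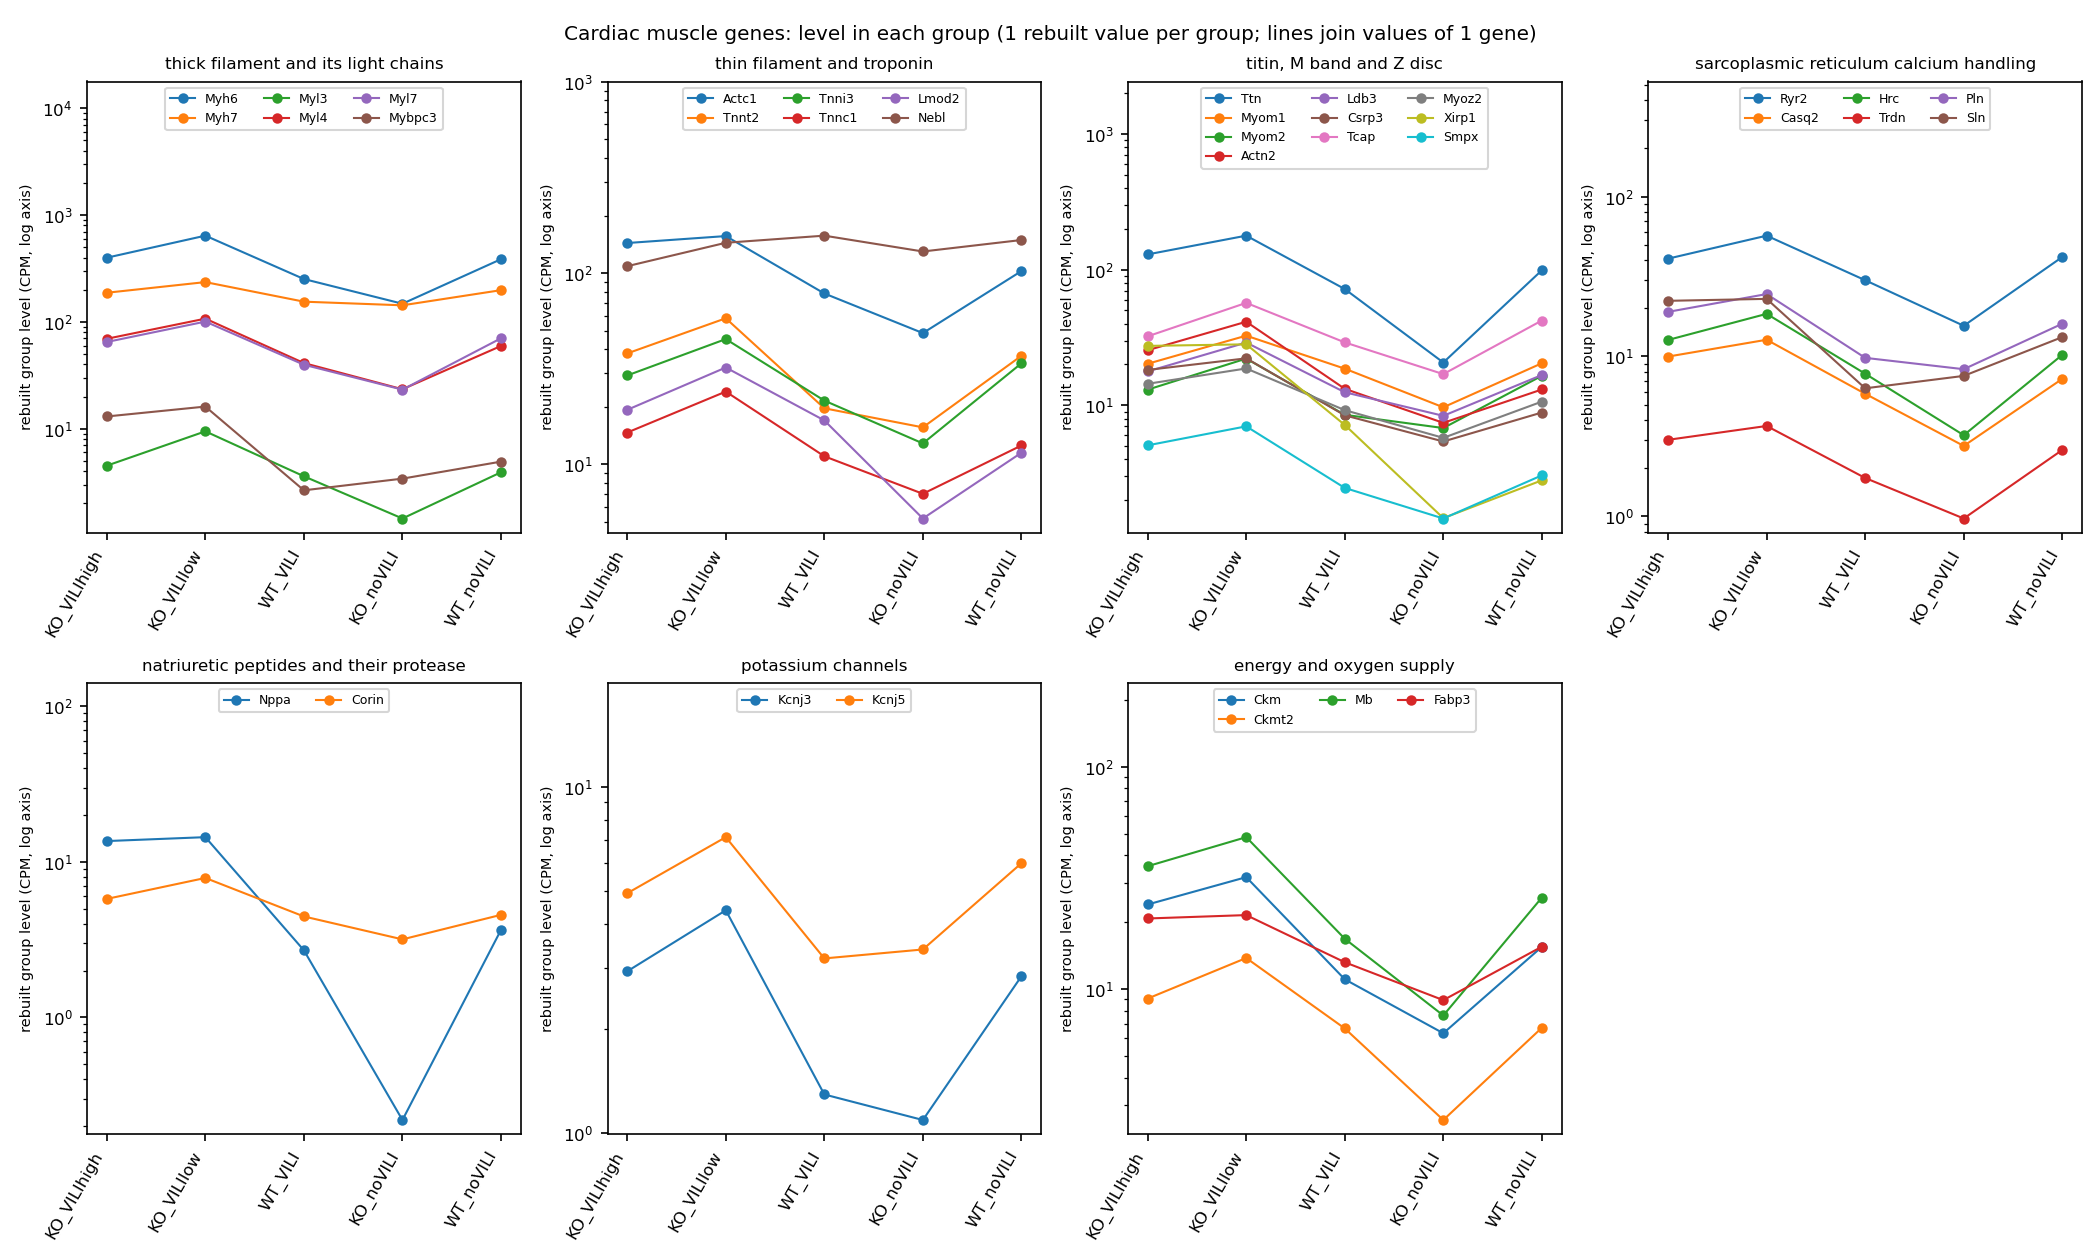
Levels of the 36 cardiac muscle genes in the 5 groups, in 1 panel for each role, with rebuilt group levels in CPM on log y axes that differ between panels; each point is 1 rebuilt value per group, and lines join the values of 1 gene and carry no order. Most lines peak at KO_VILIlow and dip at KO_noVILI, while Nebl, between 109 and 157 CPM, stays flat.

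In unventilated lungs the cardiac muscle genes were lower in the knockout group than in the wild type group. In the authors' deposited table of KO_noVILI against WT_noVILI, 20 of the 36 genes were called lower (edgeR adjusted p of at most 0.05) and 0 were called higher. Of all 14555 genes at or above the minimum level in that table, 2.8% were called lower and 2.07% higher. All 36 fold changes in this table were below 0, and 31 genes had an unadjusted p under 0.05, each of them lower. The share of all genes under that unadjusted p was not counted, here or in the other comparisons. Their median log2 fold change in the authors' deposited table was -1.19, with a range of -4.06 to -0.20, while the median of all genes was 0.01. Whether the samples of these groups held unequal amounts of heart or vein muscle was not tested.

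After ventilation with similar injury, the cardiac muscle genes were higher in the knockout. In the authors' deposited table of KO_VILIlow against WT_VILI, 26 of the 36 were called higher and 0 lower, where 0.995% of all 14672 genes were called higher and 0.429% lower. By edgeR's unadjusted p, 35 of the 36 were higher and 0 lower at a p under 0.05 in that table. The median log2 fold change was 1.39 in the authors' deposited table, within a range of -0.14 to 2.93, against a median of -0.01 for all genes. Nebl was the gene below 0.

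In the more injured knockout lungs few of the genes were called. The authors' deposited table of KO_VILIhigh against WT_VILI called 2 of the 36 higher, Mybpc3 and Sln, and 0 lower, where 1.64% of all 14808 genes were called higher and 0.635% lower. At an unadjusted edgeR p under 0.05 that table held 9 genes higher and 1 lower, which was Nebl. The log2 fold change was above 0 for 35 of the 36, with a median of 0.81 in the authors' deposited table and a median of 0 for all genes. Both ventilated knockout comparisons share the WT_VILI libraries as their reference, so their directions are not independent of each other.

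In wild type lungs 1 cardiac muscle gene was called after ventilation. In the authors' deposited table of WT_VILI against WT_noVILI, Xirp1 was called higher and 0 of the 36 were called lower, where 7.04% of all 14758 genes were called higher and 6.15% lower. At an unadjusted edgeR p under 0.05, 9 genes were lower and 1 was higher in that table. The share of all genes under that p was not counted, so these counts alone do not set the cardiac muscle genes apart. Fold changes were below 0 for 32 of the 36, with a median of -0.44 in log2 units in the authors' deposited table, against -0.02 for all genes. WT_VILI is the reference of both ventilated knockout comparisons, and WT_noVILI is the reference here and in the unventilated knockout comparison.

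**Figure D3:**
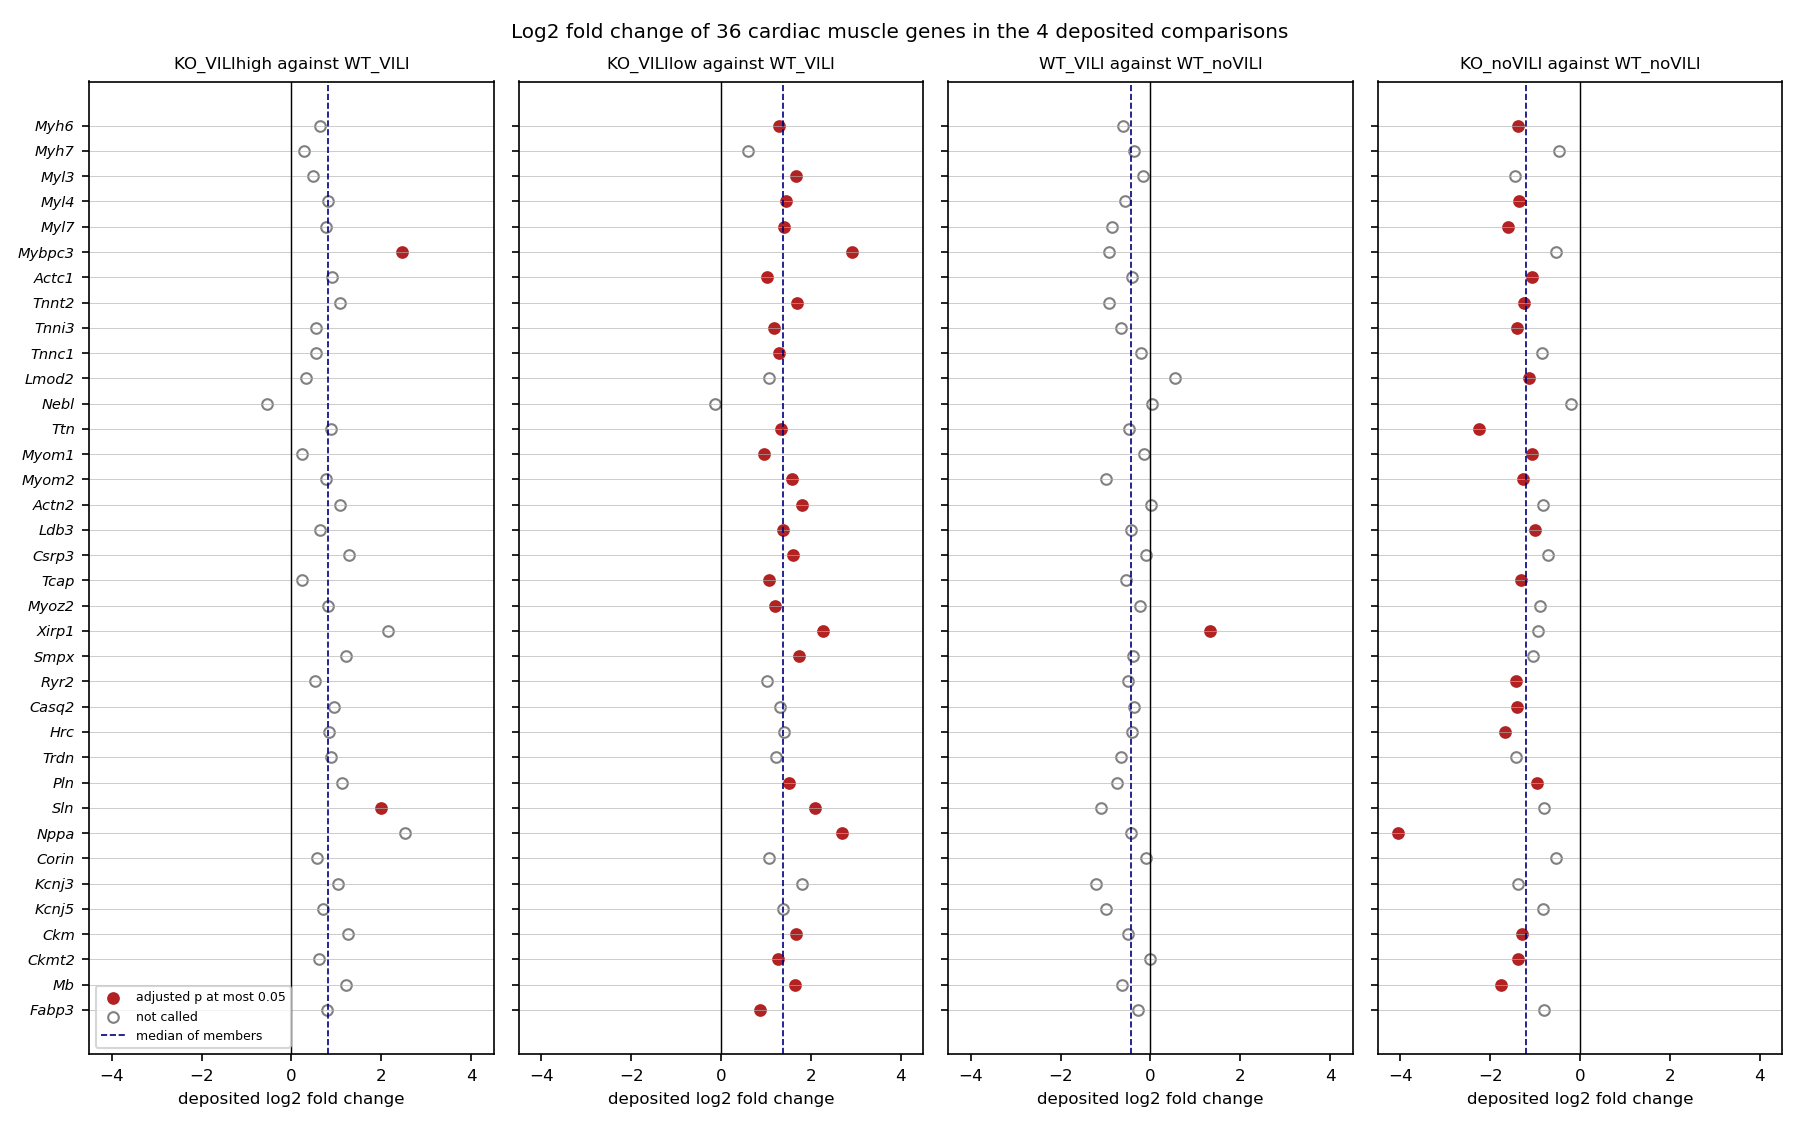
Deposited log2 fold changes of the 36 cardiac muscle genes, 1 gene per line and 1 panel per comparison; filled points have an adjusted p of at most 0.05, open points do not, and the dashed line is the median of the genes. The medians lie at 0.81 for KO_VILIhigh, 1.39 for KO_VILIlow, -0.44 for WT_VILI and -1.19 for KO_noVILI.

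**Figure D4:**
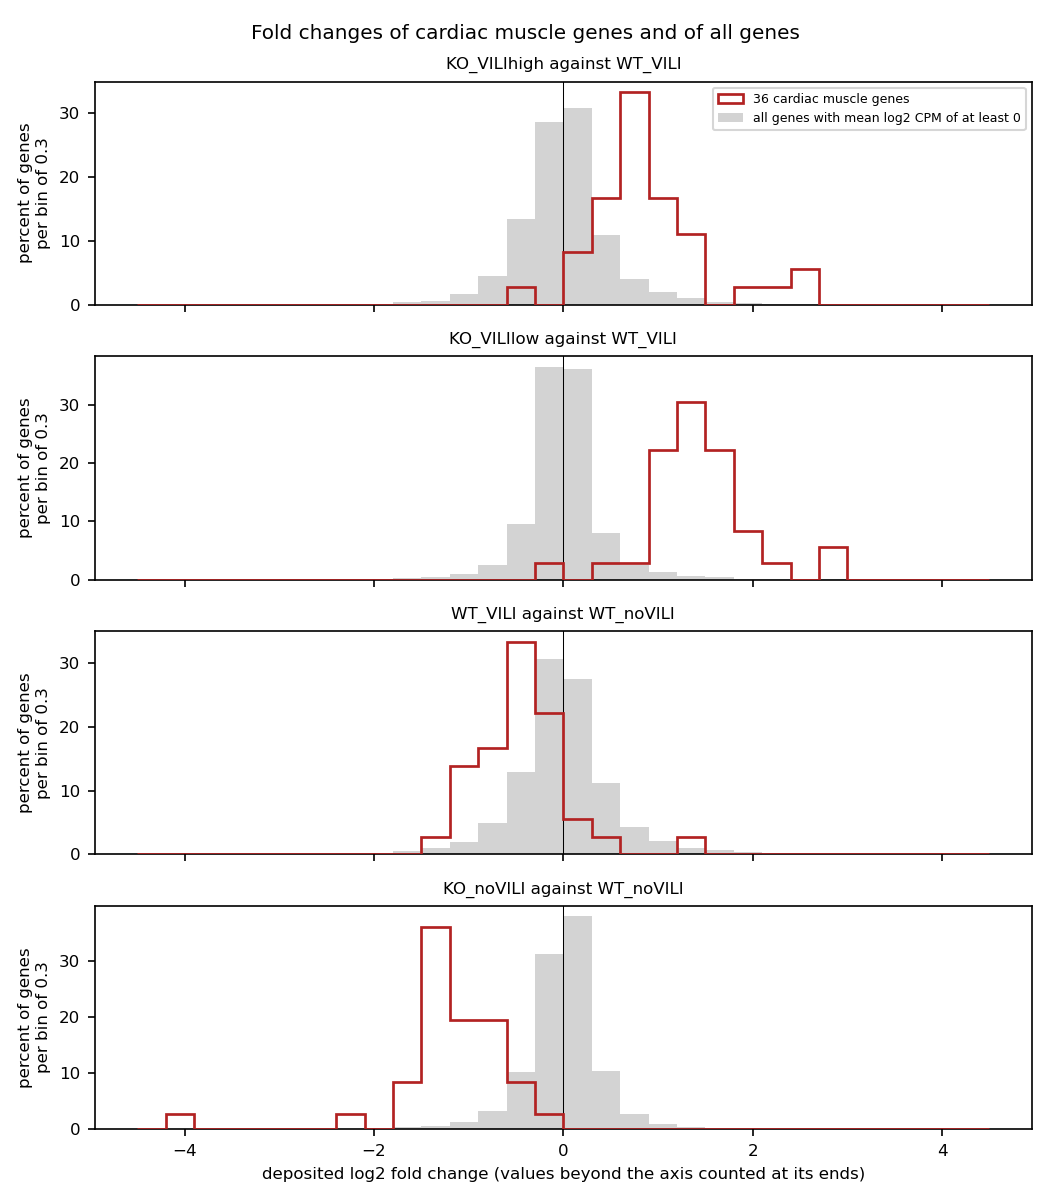
Shares of genes in bins of log2 fold change, in percent, for the 36 cardiac muscle genes (line) and for all genes at or above a mean log2 CPM of 0 (grey), in the 4 deposited comparisons. The line lies right of the grey bars in both ventilated knockout comparisons, left of them in KO_noVILI against WT_noVILI, and slightly left of them in WT_VILI against WT_noVILI.

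The thick filament genes include the myosin motor itself. Myh6, the main myosin heavy chain of the adult mouse heart, stood at 398 CPM in KO_VILIhigh, 641 CPM in KO_VILIlow, 252 CPM in WT_VILI, 148 CPM in KO_noVILI and 386 CPM in WT_noVILI, as rebuilt from the authors' deposited tables. It was lowest in KO_noVILI and highest in KO_VILIlow. In the authors' deposited tables its log2 fold change was -1.38 in KO_noVILI (edgeR adjusted p = 2.81e-08) and 1.29 in KO_VILIlow (edgeR adjusted p = 0.0241). Myh7, the slow heavy chain that prevails in the fetal ventricle, moved less: its rebuilt levels from the authors' deposited tables were 187, 236 and 155 CPM in KO_VILIhigh, KO_VILIlow and WT_VILI, and 143 and 198 CPM in KO_noVILI and WT_noVILI. It was called in none of the 4 tables, with log2 fold changes from -0.47 to 0.60 in the authors' deposited tables and an unadjusted edgeR p under 0.05 in those of KO_VILIlow and KO_noVILI. The level of Myh6 over that of Myh7 was 2.13 in KO_VILIhigh, 2.72 in KO_VILIlow, 1.63 in WT_VILI, 1.03 in KO_noVILI and 1.95 in WT_noVILI, rebuilt from the authors' deposited tables. Both values are uncertain, since 29.3% of the 36-base runs of Myh6 also occur in Myh7 and the authors' counting could have split such reads.

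The atrial light chains had like levels. Myl7 had rebuilt levels from the authors' deposited tables of 64.8 CPM in KO_VILIhigh, 101 CPM in KO_VILIlow, 39.7 CPM in WT_VILI, 23.2 CPM in KO_noVILI and 70.2 CPM in WT_noVILI. For Myl4, the atrial essential light chain, these were 69.4 CPM in KO_VILIhigh, 107 CPM in KO_VILIlow, 41.1 CPM in WT_VILI, 23.4 CPM in KO_noVILI and 59.5 CPM in WT_noVILI, again from the authors' deposited tables. Both genes were called lower in KO_noVILI and higher in KO_VILIlow. For Myl7 the log2 fold changes in the authors' deposited tables were -1.60 (edgeR adjusted p = 0.000112) in KO_noVILI and 1.41 (edgeR adjusted p = 0.0018) in KO_VILIlow, and in KO_VILIhigh it was 0.77 (edgeR adjusted p = 0.604). Myl3, the essential light chain of ventricle and slow muscle, was far lower, at 4.51 CPM in KO_VILIhigh, 9.45 CPM in KO_VILIlow, 3.59 CPM in WT_VILI, 1.44 CPM in KO_noVILI and 3.91 CPM in WT_noVILI by the authors' deposited tables. It was called higher in KO_VILIlow.

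Mybpc3 encodes cardiac myosin-binding protein C, which tunes how fast myosin engages actin. Its levels rebuilt from the authors' deposited tables were 13.0 CPM in KO_VILIhigh, 16.1 CPM in KO_VILIlow, 2.65 CPM in WT_VILI, 3.41 CPM in KO_noVILI and 4.92 CPM in WT_noVILI. Both ventilated knockout groups stood above the other 3 groups, and the lowest level was that of WT_VILI. The log2 fold change was 2.46 in KO_VILIhigh (edgeR adjusted p = 0.00445) and 2.93 in KO_VILIlow (edgeR adjusted p = 3.34e-14) in the authors' deposited tables. In unventilated lungs Mybpc3 was not called, with a log2 fold change of -0.53 in the authors' deposited table (edgeR adjusted p = 0.878).

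Among thin filament genes 4 of 6 were called higher in KO_VILIlow and 4 of 6 lower in KO_noVILI in the authors' deposited tables. Actc1, the cardiac actin, had rebuilt levels from the authors' deposited tables of 144 CPM in KO_VILIhigh, 156 CPM in KO_VILIlow, 78.3 CPM in WT_VILI, 48.6 CPM in KO_noVILI and 103 CPM in WT_noVILI. It was called lower in KO_noVILI (log2 fold change -1.08) and higher in KO_VILIlow (1.03) in the authors' deposited tables. Tnnt2, the troponin subunit that binds tropomyosin, stood at 38.04 CPM in KO_VILIhigh, 58.1 CPM in KO_VILIlow, 19.6 CPM in WT_VILI, 15.6 CPM in KO_noVILI and 37.0 CPM in WT_noVILI by the authors' deposited tables. It was called lower in KO_noVILI and higher in KO_VILIlow. Its partner Tnni3, the inhibitory subunit of the heart, was also called in both, at -1.39 in KO_noVILI and 1.19 in KO_VILIlow on the log2 scale of the authors' deposited tables. Tnnc1, the calcium-binding subunit, was called higher in KO_VILIlow at 1.29, and was at -0.84 in KO_noVILI without a call (edgeR adjusted p = 0.358) in the authors' deposited tables. Lmod2, which lengthens thin filaments, was called lower in KO_noVILI at -1.14 and just missed the threshold in KO_VILIlow at 1.07 (edgeR adjusted p = 0.0597) in the authors' deposited tables.

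Nebl, a nebulin relative at the Z disc, was the exception of the set. Rebuilt from the authors' deposited tables, its level was 109 CPM in KO_VILIhigh, 144 CPM in KO_VILIlow, 157 CPM in WT_VILI, 130 CPM in KO_noVILI and 149 CPM in WT_noVILI. These 5 levels lay within 1.44-fold of each other. In the authors' deposited tables Nebl was called in no comparison and its log2 fold change in KO_VILIhigh was -0.54 (edgeR adjusted p = 0.36). Its level over that of Myl7 was 1.68 in KO_VILIhigh, 1.43 in KO_VILIlow, 3.96 in WT_VILI, 5.59 in KO_noVILI and 2.12 in WT_noVILI by the authors' deposited tables.

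All 10 genes of titin, the M band and the Z disc were called higher in KO_VILIlow in the authors' deposited table, and 5 of the 10 were called lower in KO_noVILI. Ttn encodes titin, the spring that spans the sarcomere from Z disc to M band. Its levels rebuilt from the authors' deposited tables were 129 CPM in KO_VILIhigh, 178 CPM in KO_VILIlow, 71.9 CPM in WT_VILI, 20.7 CPM in KO_noVILI and 98.8 CPM in WT_noVILI. KO_noVILI thus lay below every other group, and its log2 fold change of -2.26 (edgeR adjusted p = 3.45e-18) had the smallest adjusted p of the set in the authors' deposited table of KO_noVILI. In KO_VILIlow Ttn was at 1.34 (edgeR adjusted p = 0.0281) in the authors' deposited table.

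The M band crosslinkers Myom1 and Myom2 were called in both directions too. Myom1 was at -1.08 in KO_noVILI and 0.96 in KO_VILIlow, and Myom2 at -1.28 and 1.57 in those groups, as log2 fold changes in the authors' deposited tables. Of the Z disc genes, Ldb3 (cypher), which binds actinin, and Tcap (telethonin), which caps titin, were called lower in KO_noVILI, Tcap at -1.31, and higher in KO_VILIlow, at 1.39 for Ldb3 and 1.07 for Tcap, in the authors' deposited tables. Actn2, the sarcomeric actinin that crosslinks actin, Csrp3, a stretch-associated Z disc protein, Myoz2, a calcineurin-binding Z disc protein, and Smpx, a small protein of striated muscle, were called higher in KO_VILIlow, at log2 fold changes of 1.20 to 1.81 in the authors' deposited table. These 4 were not called in KO_noVILI, where their log2 fold changes were -1.06 to -0.71 in the authors' deposited table.

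Xirp1 (Xin), an actin-binding protein of the intercalated disc and of damaged myofibrils, was ordered differently by group from most of the set. It stood at 27.4 CPM in KO_VILIhigh, 28.1 CPM in KO_VILIlow, 7.18 CPM in WT_VILI, 1.48 CPM in KO_noVILI and 2.81 CPM in WT_noVILI, rebuilt from the authors' deposited tables. All 3 ventilated groups were above both unventilated ones. The same held for Lmod2, at 17.0 CPM in WT_VILI and 11.5 CPM in WT_noVILI, and narrowly for Actn2, at 13.24 and 13.09 CPM. Xirp1 was the one member called in WT_VILI against WT_noVILI, at a log2 fold change of 1.33 (edgeR adjusted p = 0.00886) in the authors' deposited table. In KO_VILIlow it was called at 2.26 (edgeR adjusted p = 4.72e-07), and in KO_VILIhigh it was at 2.16 and missed the threshold (edgeR adjusted p = 0.0599), in the authors' deposited tables. Relative to Myl7, its level was 0.423 in KO_VILIhigh, 0.280 in KO_VILIlow, 0.181 in WT_VILI, 0.0637 in KO_noVILI and 0.0400 in WT_noVILI by the authors' deposited tables.

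Calcium handling genes of the sarcoplasmic reticulum were called lower in KO_noVILI in 4 of 6 cases and higher in KO_VILIlow in 2 of 6 in the authors' deposited tables. Ryr2, the calcium release channel, was at 40.9 CPM in KO_VILIhigh, 56.9 CPM in KO_VILIlow, 30.0 CPM in WT_VILI, 15.5 CPM in KO_noVILI and 41.9 CPM in WT_noVILI, rebuilt from the authors' deposited tables. Its call was in KO_noVILI, with a log2 fold change of -1.43 (edgeR adjusted p = 1.12e-11), and in KO_VILIlow it was at 1.02 (edgeR adjusted p = 0.0975), in the authors' deposited tables. The calcium store proteins Casq2 (calsequestrin) and Hrc, a histidine-rich calcium-binding protein, were likewise called in KO_noVILI, at -1.39 and -1.67, and not in KO_VILIlow, where they were at 1.32 (edgeR adjusted p = 0.199) and 1.41 (edgeR adjusted p = 0.113), in the authors' deposited tables. Trdn (triadin), which anchors calsequestrin at the channel, was called in no table, at -1.42 in KO_noVILI (edgeR adjusted p = 0.092) and 1.24 in KO_VILIlow (edgeR adjusted p = 0.582) in the authors' deposited tables. Its mean log2 CPM of 0.84 to 1.39 was among the lowest of the kept genes.

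The remaining pair of this group inhibits the calcium pump that refills the store. Sln (sarcolipin), the atrial pump inhibitor, stood at 22.3 CPM in KO_VILIhigh, 22.9 CPM in KO_VILIlow, 6.32 CPM in WT_VILI, 7.55 CPM in KO_noVILI and 13.2 CPM in WT_noVILI, rebuilt from the authors' deposited tables. The 2 ventilated knockout groups were almost level with each other and above all other groups. Sln was called higher in both, at a log2 fold change of 2.00 in KO_VILIhigh (edgeR adjusted p = 0.000187) and 2.09 in KO_VILIlow (edgeR adjusted p = 1.3e-08) in the authors' deposited tables. Pln (phospholamban), the related inhibitor that prevails in ventricle, was called higher in KO_VILIlow at 1.51 and lower in KO_noVILI at -0.95 in the authors' deposited tables. The level of Sln over Pln was 1.17 in KO_VILIhigh, 0.933 in KO_VILIlow, 0.645 in WT_VILI, 0.908 in KO_noVILI and 0.825 in WT_noVILI by the authors' deposited tables.

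Nppa, the gene of atrial natriuretic peptide, had the widest range of the set. Its levels rebuilt from the authors' deposited tables were 13.6 CPM in KO_VILIhigh, 14.4 CPM in KO_VILIlow, 2.70 CPM in WT_VILI, 0.219 CPM in KO_noVILI and 3.65 CPM in WT_noVILI. The level in KO_noVILI lies under the floor of its table, so the deposited fold change there depends on the fit and is no bound. It was called lower in KO_noVILI (log2 fold change -4.06, edgeR adjusted p = 0.00836) and higher in KO_VILIlow (2.70, edgeR adjusted p = 0.00847) in the authors' deposited tables. In KO_VILIhigh a nearly equal log2 fold change of 2.53 was not called in the authors' deposited table (edgeR adjusted p = 0.386). Corin, the protease that activates the peptide, was called in no comparison, with log2 fold changes of -0.52 in KO_noVILI and 1.06 in KO_VILIlow in the authors' deposited tables. Nppb, the gene of brain natriuretic peptide, fell under the minimum with a mean log2 CPM of -1.75 to -0.79, and so did Nkx2-5, the cardiac homeobox factor, with -0.98 to -0.56 in the authors' deposited tables. Just inside the minimum were Trdn, Nppa, at 0.95 to 3.06, and Kcnj3, whose lowest value was 0.97. Nppb and Nkx2-5 were called in none of the authors' deposited tables.

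The potassium channel genes Kcnj3 and Kcnj5, whose products form the atrial channel opened by acetylcholine, were called in none of the 4 tables. Kcnj3 stood at 2.93 CPM in KO_VILIhigh, 4.40 CPM in KO_VILIlow, 1.29 CPM in WT_VILI, 1.09 CPM in KO_noVILI and 2.84 CPM in WT_noVILI, rebuilt from the authors' deposited tables. In KO_VILIlow their log2 fold changes were 1.80 (edgeR adjusted p = 0.0803) for Kcnj3 and 1.39 (edgeR adjusted p = 0.203) for Kcnj5 in the authors' deposited table. At an unadjusted edgeR p under 0.05 both were higher in KO_VILIlow, lower in KO_noVILI and lower in WT_VILI in the authors' deposited tables.

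The genes of energy and oxygen supply were called higher in KO_VILIlow in 4 of 4 cases and lower in KO_noVILI in 3 of 4 in the authors' deposited tables. Mb (myoglobin), the oxygen store of muscle, had rebuilt levels from the authors' deposited tables of 35.7 CPM in KO_VILIhigh, 48.3 CPM in KO_VILIlow, 16.9 CPM in WT_VILI, 7.61 CPM in KO_noVILI and 25.8 CPM in WT_noVILI. Its log2 fold change was -1.76 in KO_noVILI (edgeR adjusted p = 0.00146) and 1.65 in KO_VILIlow (edgeR adjusted p = 0.00759) in the authors' deposited tables. The creatine kinases Ckm, of the myofibril, and Ckmt2, of the mitochondrion, followed it, at -1.29 and -1.38 in KO_noVILI and 1.68 and 1.28 in KO_VILIlow in the authors' deposited tables. Fabp3, the fatty acid carrier of heart muscle, was called in KO_VILIlow alone of the 4 tables, at 0.88, and was at -0.80 in KO_noVILI (edgeR adjusted p = 0.138) in the authors' deposited tables. Its values are uncertain because 32.9% of its 36-base runs also occur in the pseudogene Fabp3-ps1.

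Set per length of the longest coding transcript, Myl7, Actc1, Myl4 and Myh6 had the highest levels of the 36 genes in every group. Rebuilt levels from the authors' deposited tables were, for Myl7, 110 CPM per kb in KO_VILIhigh, 170 in KO_VILIlow, 67.3 in WT_VILI, 39.3 in KO_noVILI and 119 in WT_noVILI. Actc1 had 97.6 CPM per kb in KO_VILIhigh, 106 in KO_VILIlow, 53.1 in WT_VILI, 33.0 in KO_noVILI and 69.6 in WT_noVILI by the authors' deposited tables. Ttn, whose transcript is 106.824 kb long, had 1.21 CPM per kb in KO_VILIhigh, 1.66 in KO_VILIlow, 0.673 in WT_VILI, 0.194 in KO_noVILI and 0.925 in WT_noVILI by the same tables.

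Differences that no table gives directly were formed as sums and differences of fold changes from the authors' deposited tables, with no test. In KO_VILIhigh all 36 genes were below KO_VILIlow, with a median difference of -0.50 and a range from -1.19 for Myl3 to -0.09 for Fabp3. Sln, at -0.10, Xirp1, at -0.11, and Actc1, at -0.12, were close to level between these groups, while Tcap was at -0.83. The common WT_VILI reference cancels in this difference only as far as both comparisons give it the same level. Over the genes, its rebuilt level was a median of 0.915 (KO_VILIhigh) and 0.892 (KO_VILIlow) times that of the WT_VILI comparison. These differences therefore need not equal those between the levels printed above. In KO_VILIlow all 36 genes stood above KO_noVILI, by a median of 2.01 on the log2 scale, from 0.11 for Nebl to 6.33 for Nppa, whose level in KO_noVILI lies under the floor. The median over all 14285 genes was -0.01 for the first of these differences and -0.03 for the second. The difference between knockout and wild type in lungs with similar injury exceeded that in unventilated lungs by a median of 2.66 on the log2 scale, with 36 of 36 genes above 0. With higher injury both medians were smaller: KO_VILIhigh stood above KO_noVILI for 35 of 36 genes, by a median of 1.54, and the difference between genotypes exceeded that in unventilated lungs by a median of 2.00, again for 35 of 36. Nebl was the exception in both, at -0.29 and -0.34. The ventilated groups also differed from the unventilated ones in sex-linked transcripts, as given above.

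**Figure D5:**
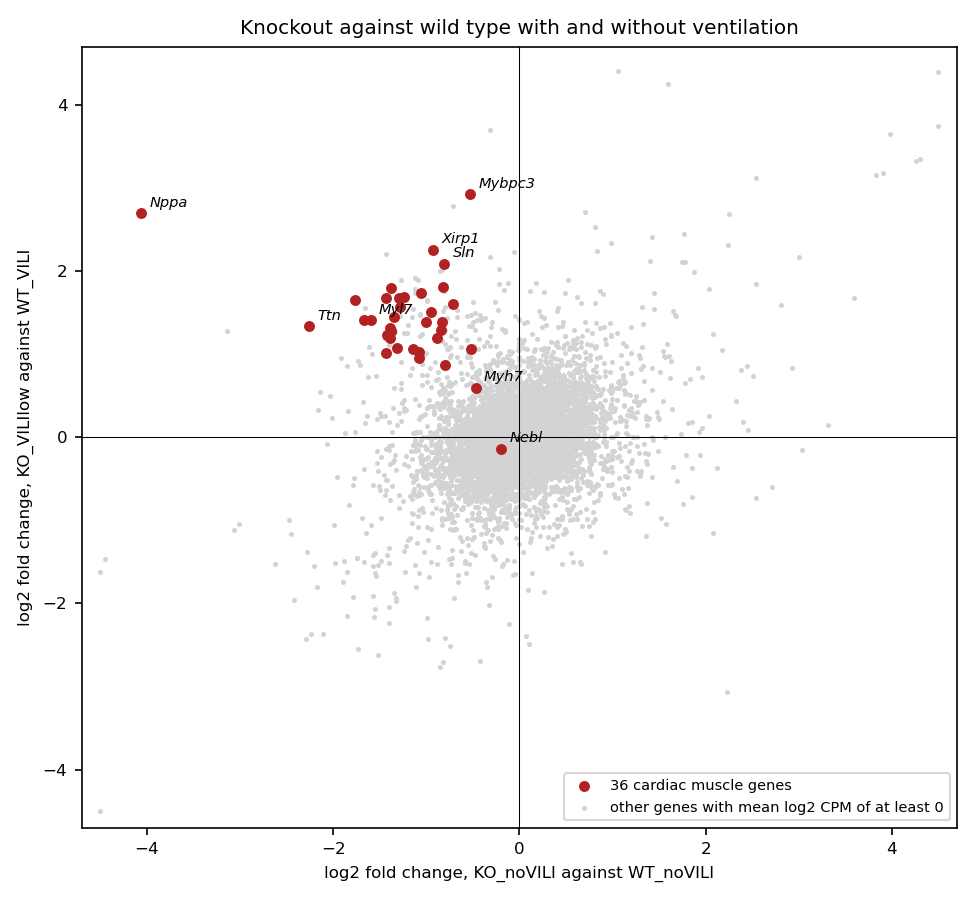
Deposited log2 fold change of KO_VILIlow against WT_VILI (y axis) against that of KO_noVILI against WT_noVILI (x axis), 1 point per gene, for the 36 cardiac muscle genes and for the other genes at or above a mean log2 CPM of 0; values beyond 4.5 are drawn at the edge. The 2 comparisons share no group, and 35 of the 36 genes lie in the upper left, with Nebl below 0 on both axes.

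Other genes of heart and other striated muscle that are not in the set were counted in lists. Of sarcomere and Z disc genes outside the set, 10 of the 28 at or above the minimum level were called higher in KO_VILIlow and 0 lower, with 18 at an unadjusted edgeR p under 0.05, in the authors' deposited table. The largest log2 fold change of this list there was 3.01, a call for Myl1, a myosin light chain of skeletal muscle, which stood at 0.822 CPM in WT_VILI. In KO_noVILI 8 of 27 were called lower and 0 higher in the authors' deposited table, with 14 at an unadjusted edgeR p under 0.05. They include Cmya5 (myospryn) at -1.45 in KO_noVILI and 1.20 in KO_VILIlow in the authors' deposited tables. The KO_VILIhigh table of the authors' deposited set called 1 of 27, Ankrd1, a stretch-responsive muscle protein, at 0.81, and the WT_VILI table called 3 of 27 higher: Fhl2 at 1.38, Popdc2 at 0.67 and Tmod1 at 0.45. Of calcium handling genes outside the set, 1 of 15 was called lower in KO_noVILI and 1 of 15 higher in KO_VILIlow, Srl (sarcalumenin) in both, at -1.07 and 1.47 in the authors' deposited tables. Atp2a2, the calcium pump that sarcolipin and phospholamban inhibit, was not called, at -0.40 in KO_noVILI (edgeR adjusted p = 0.165) and 0.55 in KO_VILIlow (edgeR adjusted p = 0.275) in the authors' deposited tables. Of 10 muscle metabolism genes outside the set, 1 was called higher in KO_VILIlow, Apobec2, a protein of striated muscle, at 2.79, 2 were called lower in KO_noVILI, Fabp4, a fatty acid carrier of fat cells and endothelium, at -1.28 and the glycolytic enzyme Eno3 at -0.75, and 1 was called lower in WT_VILI, in the authors' deposited tables. The KO_VILIhigh table called 0 of these 10, with 3 at an unadjusted edgeR p under 0.05. Apobec2 was near the floor in WT_VILI, at 0.599 CPM, against 4.20 CPM in KO_VILIlow and 2.26 CPM in WT_noVILI. Many genes of these lists are also expressed outside the heart.

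Receptors and processing enzymes of natriuretic peptides were mostly not called. In the authors' deposited tables Pde5a, which breaks down cyclic GMP, the messenger made by their receptors, was called lower in KO_VILIlow at -0.81 (edgeR adjusted p = 0.00112) and in KO_VILIhigh at -0.67 (edgeR adjusted p = 0.0355). Those were the calls among 7 measured genes in the ventilated knockout tables, Furin was called higher in WT_VILI at 0.41, and 0 of 7 were called in KO_noVILI, where 0 had an unadjusted edgeR p under 0.05, in the authors' deposited tables. Of cardiac transcription factors, 1 of 9 was called higher in KO_VILIhigh and 1 of 9 in KO_VILIlow, 1 of 10 was called higher and 2 lower in WT_VILI, and 1 of 10 was called lower in KO_noVILI, by the authors' deposited tables. Myocd (myocardin), a partner of serum response factor, was called higher in KO_VILIlow at 1.62, Srf, serum response factor itself, was called higher in KO_VILIhigh at 0.73 and in WT_VILI at 0.90, and Mef2c was called lower in KO_noVILI at -0.67, in the authors' deposited tables.

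Markers of other cell types moved in some of the same comparisons. Of 11 smooth muscle genes, 4 were called lower in KO_noVILI: Acta2 at -0.82, Cnn1 at -0.87, Myh11 at -0.80 and Lmod1 at -0.81 in the authors' deposited table. In KO_VILIlow 1 of 11 was called higher, Cnn1 at 0.70, in KO_VILIhigh 1, Tagln at 0.77, and in WT_VILI 3 were called lower in the authors' deposited tables. The summed level of the 11 genes was 1686 CPM in KO_VILIhigh, 1790 CPM in KO_VILIlow, 1592 CPM in WT_VILI, 1524 CPM in KO_noVILI and 1844 CPM in WT_noVILI, rebuilt from the authors' deposited tables. Of fat and mesothelium genes 3 of 6 were called lower in KO_noVILI, the fat genes Cfd at -1.34, Adipoq at -1.54 and Plin1 at -1.64, and 1 of 7 was called higher in KO_VILIhigh, Ucp1 at 3.89, in the authors' deposited tables; in WT_VILI, Ucp1 was near the floor, so its value is a fitted one. Their summed level was 188 CPM in KO_VILIhigh, 170.0 CPM in KO_VILIlow, 160 CPM in WT_VILI, 108 CPM in KO_noVILI and 182 CPM in WT_noVILI by the authors' deposited tables. The mesothelium genes Msln and Upk3b had the highest levels of this list in every group. Adipoq, Cfd and Plin1 were lowest in KO_noVILI, at 2.27, 7.64 and 1.37 CPM by the authors' deposited tables. They were highest in KO_VILIhigh, at 13.2, 28.6 and 10.6 CPM, and at 9.03, 23.6 and 5.599 CPM in KO_VILIlow, by the authors' deposited tables. WT_VILI had 6.18, 17.2 and 5.44 CPM, and WT_noVILI 6.59, 19.4 and 4.28 CPM, by the authors' deposited tables.

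Red blood cell genes were lowest in WT_VILI. Their summed level over 5 genes was 3078 CPM in KO_VILIhigh, 3396 CPM in KO_VILIlow, 900 CPM in WT_VILI, 6243 CPM in KO_noVILI and 3950 CPM in WT_noVILI, rebuilt from the authors' deposited tables. Of 4 that passed the minimum, 3 were called higher in KO_VILIhigh and 3 lower in WT_VILI in the authors' deposited tables. The haemoglobin gene Hbb-bs was called lower in WT_VILI at -1.92 and higher in KO_VILIhigh at 1.61 in the authors' deposited tables. In KO_VILIlow it was at 1.77 without a call in the authors' deposited table (edgeR adjusted p = 0.593), and in KO_noVILI at 0.87 (edgeR adjusted p = 0.833). Skeletal muscle genes had a summed level over 20 genes of 37.2 CPM in KO_VILIhigh, 35.2 CPM in KO_VILIlow, 29.7 CPM in WT_VILI, 19.3 CPM in KO_noVILI and 17.3 CPM in WT_noVILI by the authors' deposited tables. Of the 9 that passed the minimum, 1 was called higher in KO_VILIlow, Atp2a1 at 2.17, and 2 in WT_VILI, Acta1 at 1.71 and Neb at 1.21, in the authors' deposited tables. The part of these cell types in the levels of the cardiac muscle genes was not tested.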

How the data were processed

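RNA sequencing of whole mouse lungs in 5 groups was deposited as 4 comparison tables, with 0 columns of values per library. Libraries were made from TRIzol-extracted total RNA with a TruSeq RNA kit, per the labels' protocols. Per the submitters' processing notes, the tools were Bowtie 1.1.2, R 3.0.1 and edgeR, and the build was mm9. How reads were counted, whether strand was used and how genes were filtered are not given in the sources used here. The deposited log2 fold changes and mean log2 CPM, and the deposited p-value and adjusted p-value of each gene, are the authors' edgeR output over all genes, read here as on a log2 scale, which the headers do not state.

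The labels list the unventilated wild type under every file. The reference of each ventilated knockout table was therefore checked. Its rebuilt levels were set against each wild type group over the 10562 genes whose mean log2 CPM was 3 or more. The median offset between the levels was first taken off. The median absolute difference left from WT_VILI was 0.0450 log2 (KO_VILIhigh table) and 0.0491 log2 (KO_VILIlow table). From WT_noVILI it was 0.203 and 0.204 log2, so these tables were read as comparisons with WT_VILI.

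With mean level m and fold change f, the reference level was taken as 2m divided by 1 + f, and the level of the other group as f times that. KO_noVILI and WT_noVILI came from the KO_noVILI table, WT_VILI from its own table. A gene was called at an adjusted p of at most 0.05. The members and gene lists were chosen with earlier results of these data known. All 38 members may be named, from each other list up to 4 genes whose mean log2 CPM was 1 or more, with the smallest deposited p per comparison, and markers stated to be near the floor. Cldn4, Xist and Ddx3y were added as checks, and genes named in the observations were chosen after their values were seen. Myl1 was named for the largest fold change of its list in KO_VILIlow. With no values per library, p-values measure the spread between the authors' libraries, which may be technical, and no standard error can be given.

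Chromosomes, neighbours and promoters came from RefSeq tables of GRCm38.p6, and transcript lengths and shared 36-base runs from the longest coding transcript of each gene in GENCODE M21. Rebuilding was run on simulated fold changes whose mean levels came from the same formula. That run checks the arithmetic and not whether the formula holds for the deposited values. Python 3.11.15, numpy 2.4.6, pandas 2.3.3 and matplotlib 3.10.9 were used. Alternatives were stricter or recomputed call rules, other minimum levels, centring, means, left-out paralogs and levels from other tables.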

Additional observations from a re-analysis of the deposited data

How the results depend on the processing

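The direction of every median log2 fold change of the cardiac muscle genes was the same under each alternative run (centring on all genes, a minimum mean log2 CPM of 2 or none, the mean, and without Myh6, Myh7 and Nppa). With Bonferroni adjustment over all genes, the number of genes called was 1 in KO_VILIhigh, 9 in KO_VILIlow, 0 in WT_VILI and 9 in KO_noVILI, against 2, 26, 1 and 20 in those groups by edgeR's deposited adjusted p; at an unadjusted p under 0.05 there were 10, 35, 10 and 31. With a minimum mean log2 CPM of 2, which leaves 27 genes, 1 was called in KO_VILIhigh and 0 in WT_VILI, where 7 had an unadjusted edgeR p under 0.05. An adjusted p of at most 0.01 left 2, 18, 1 and 14 genes, and adjustment over the genes at or above a mean log2 CPM of 0 gave 3, 27, 1 and 20. The median level in WT_VILI was 9.90 CPM when taken from the KO_VILIlow table, against 11.0 CPM from the WT_VILI table; over the genes, the first value was a median of 0.892 times the second. No paired analysis was possible because the files hold no values per library, and for the same reason leaving out each replicate could not be run and the depth behind each value is unknown.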

Other observations

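Genes called lower in KO_noVILI against WT_noVILI and higher in KO_VILIlow against WT_VILI were counted, since these comparisons share no group. Of the authors' deposited tables, the first called 407 genes lower and the second 146 higher, counting genes at or above a mean log2 CPM of 0 in each, and 22 genes were in both lists. These are 5.41% of the first list and 15.1% of the second. Of the 22 genes, 16 were cardiac muscle genes of the set, which was chosen with these comparisons known. The other 6 include Cnn1, Hspb7, Mybphl, Cmya5 and Srl, named after their values were seen. Hspb7, a small heat shock protein of heart and muscle, was at -1.21 in KO_noVILI and 1.26 in KO_VILIlow, and Mybphl at -1.27 and 1.89, in the authors' deposited tables. The reverse pair of calls was found for 1 gene.

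Among genes on the atrial list that other cells also express, Gja5, the connexin of arterial endothelium and atrium, was called lower in WT_VILI at -1.80 and Nr2f2, a transcription factor of vein endothelium and atrium, at -1.76 in the authors' deposited table. Rebuilt from the authors' deposited tables, Gja5 stood at 36.3 CPM in KO_VILIhigh, 32.6 CPM in KO_VILIlow, 39.0 CPM in WT_VILI, 146 CPM in KO_noVILI and 132 CPM in WT_noVILI. Neither followed the cardiac muscle genes, which were highest in KO_VILIlow. Of 11 ion channel and gap junction genes outside the set, 2 were called higher and 2 lower in KO_noVILI in the authors' deposited table. The channel gene Hcn2 was called higher in KO_noVILI at 1.42 in the authors' deposited table. In WT_VILI 1 of 11 was called higher, Kcnj2 at 0.56, and 1 lower, Gja5, while 0 of 11 were called in KO_VILIlow (1 at an unadjusted edgeR p under 0.05) and 0 of 13 in KO_VILIhigh (3 at that p) in the authors' deposited tables.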
